A study of Arabidopsis thaliana with 36 samples.

Results

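Late embryogenesis abundant (LEA) protein genes were followed in Arabidopsis seeds that carry or lack the histone variant H3.3. A list of 51 LEA loci was matched by locus identifier in the deposited expression table of 27655 genes, and all 51 were found. Of these, 45 entered the tests, having reached 1 TPM in 3 or more of the 36 libraries (TPM is a read count corrected for gene length and sequencing depth). They fall into 9 families by the usual classification of their proteins, which comes from general knowledge and not from the files. The LEA_1 family had 3 members, LEA_2 had 3, LEA_3 had 4, LEA_4 had 18, LEA_5 (the Em proteins) had 2, PvLEA18 had 3, the dehydrins were 10, the seed maturation proteins (SMP) were 6 and the AtM proteins were 2. The 6 genes that did not pass were AT3G53770, AT2G03740, AT4G13230, UNE15 (AT4G13560), AT2G33690 and AT5G27980, and none of them reached 1 TPM in any library.

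Total RNA was sequenced from whole seeds of the wild type Columbia (Col) and of *h3.3ko*, in which the H3.3 genes *HTR4* and *HTR5* carry CRISPR-Cas9 mutations and *HTR8* carries a T-DNA insertion. Per the study's methods, *h3.3ko* seeds came from plants heterozygous for a *pHTR5::HTR5* transgene with a seed fluorescence marker, and seeds without the marker signal were taken, so the mutant embryos developed on a rescued mother plant. Both genotypes were sampled as mature seeds (MS), after 12, 24 or 48 h of stratification in the cold (S12h, S24h, S48h), and 12 or 24 h after transfer to germination conditions (G12h, G24h), with 3 libraries in each of the 12 groups. By the study's account, Col but not *h3.3ko* had completed germination at G24h, so at that time the genotypes were at different stages. The labels do not say whether the 3 libraries of a group came from separate harvests, and p-values measure only the spread between them.

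LEA proteins are small, very hydrophilic and mostly unstructured proteins that accumulate in the last part of seed development, when the embryo acquires tolerance of drying. They are known to protect membranes and other proteins as water is lost. Dehydrins are the family best known from leaves as well, where cold, drought and abscisic acid (ABA) induce several of them, and the LEA_2 proteins differ from the rest in having a fold. In seeds many LEA genes are switched on by the ABA-responsive transcription factor ABI5 and its relatives through ACGTG elements in their promoters, and the stored transcripts disappear after imbibition of a wild-type seed.

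The recovered depth was 17.00 to 19.30 M reads on nuclear genes per library. On a gene of 1 kb, 3 reads equalled 0.245 to 0.370 TPM, and the highest of these values was not in the library of lowest depth. AT5G10980, the H3.3 gene with the lowest level in the mutant, was at 131.8 to 2242 TPM in the 18 Col libraries and 1.47 to 14.9 TPM in the 18 *h3.3ko* libraries. AT4G40030 was at 125 to 510.1 TPM against 20.5 to 71.8 TPM, whereas AT4G40040 overlapped between genotypes, at 288.5 to 827.8 TPM against 106.9 to 314.7 TPM. Replicate libraries differed beyond counting noise in each of the 36 pairs. Storage protein transcripts took 34.1 ± 0.883% (SD, n = 3) of the TPM in *h3.3ko* MS and 10.15 ± 0.212% in Col MS, so the totals against which all other genes are scaled differed. In whole seeds, fewer cells of a type and less RNA per cell cannot be told apart.

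The 250 bases before the annotated transcript start were read from the RefSeq assembly TAIR10.1 for each member, because ABA-responsive elements near the start are what many LEA promoters are known for. The search, on both strands, was for the ABRE core ACGTG, the G-box CACGTG (each G-box holds an ABRE core on either strand, so it counts as a pair of overlapping matches), the RY element CATGCA and the DRE core CCGAC. Windows of 5 members are shown: RAB18 and GEA6, the most abundant members in Col MS, AT3G02480, the member called higher in *h3.3ko* at all 6 time points, M17, the member with the lowest ratio in *h3.3ko* MS, and ERD10, a dehydrin that was lower in *h3.3ko* at G24h. Each is written 5′ to 3′ on the strand of the gene and ends at the base before the start, and capitals mark ACGTG or its reverse complement CACGT. The window of RAB18 is chr5:26519448-26519697 (minus strand), that of GEA6 is chr2:16780369-16780618 (minus), that of AT3G02480 is chr3:511970-512219 (plus), that of M17 is chr2:17206202-17206451 (plus) and that of ERD10 is chr1:7089607-7089856 (minus).
RAB18: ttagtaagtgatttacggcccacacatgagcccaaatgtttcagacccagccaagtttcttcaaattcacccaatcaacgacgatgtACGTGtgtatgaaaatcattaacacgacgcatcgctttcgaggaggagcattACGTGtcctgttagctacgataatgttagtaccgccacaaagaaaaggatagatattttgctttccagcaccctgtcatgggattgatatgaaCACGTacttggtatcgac
GEA6: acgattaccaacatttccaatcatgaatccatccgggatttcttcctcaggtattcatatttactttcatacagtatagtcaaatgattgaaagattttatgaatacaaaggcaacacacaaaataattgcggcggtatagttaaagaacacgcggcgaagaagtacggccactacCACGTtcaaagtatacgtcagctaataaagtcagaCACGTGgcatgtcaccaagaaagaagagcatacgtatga
AT3G02480: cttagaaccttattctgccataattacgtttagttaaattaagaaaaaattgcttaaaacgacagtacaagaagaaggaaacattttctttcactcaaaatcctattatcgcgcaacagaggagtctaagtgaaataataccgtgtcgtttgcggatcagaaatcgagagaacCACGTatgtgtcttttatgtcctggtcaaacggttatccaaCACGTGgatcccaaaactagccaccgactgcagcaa
M17: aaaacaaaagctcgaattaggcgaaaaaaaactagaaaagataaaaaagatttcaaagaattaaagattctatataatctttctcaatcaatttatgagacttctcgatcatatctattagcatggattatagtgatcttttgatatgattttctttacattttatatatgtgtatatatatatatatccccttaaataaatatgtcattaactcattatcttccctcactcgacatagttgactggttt
ERD10: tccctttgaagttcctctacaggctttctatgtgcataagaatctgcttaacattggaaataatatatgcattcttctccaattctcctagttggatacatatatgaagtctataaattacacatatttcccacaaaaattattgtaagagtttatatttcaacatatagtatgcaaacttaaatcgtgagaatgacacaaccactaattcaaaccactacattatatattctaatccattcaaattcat

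The RAB18, GEA6 and AT3G02480 windows held 3 matches each, the nearest 18, 38 and 35 bases from the start, and M17 and ERD10 held none. For 31 members the Col MS mean was 100 TPM or more, a level chosen after the values were seen, and these are called stored here. Among them 27 had an ABRE core in the window (87.1%) and 25 had more than 1 (80.6%). The share with at least 1 was 22.9% of 27443 protein-coding genes and 42.3% of the 700 tested genes at that level in Col MS. The highest number was 7, in AT3G53040 and AT4G36600. The G-box stood in 19 of the 31 (61.3%), against 6.5% of protein-coding genes and 21.9% of the 700. The DRE core stood in 14 (45.2%, against 12.0% and 18.3%) and the RY element in 7 (22.6%, against 8.4% and 14.1%). Of the 14 other tested members 8 had an ABRE core (57.1%) and 2 had a G-box (14.3%). ERD10 does not stand for all members called lower in *h3.3ko* at G24h, since 5 of those 8 had an ABRE core (62.5%). Among the 33 called higher at G24h it was 28 (84.8%). M17, ATECP31, LTI30 and AT2G23120 were the abundant members without an ABRE core in these 250 bases. A match says only that the letters are present.

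In dry Col seeds the LEA genes together made up 17.4 ± 0.649% (SD, n = 3) of all TPM, and 24 of them were above 1000 TPM. The dehydrin RAB18 (AT5G66400), a classical ABA-induced gene, stood highest at 29412, 31102 and 34080 TPM in the 3 libraries. GEA6 (AT2G40170), an Em protein of the LEA_5 family, had 26557, 25291 and 27331 TPM. AT3G15670 of LEA_4 followed with 21415, 22215 and 23447 TPM. The ranges of these 3 genes did not overlap, and together they held 46.1% of the LEA total. LEA4-5 (AT5G06760) had the highest mean of LEA_1, with 9455, 9306 and 10458 TPM. ATECP31 (AT3G22500), of the seed maturation proteins, had 6850, 6666 and 6881 TPM, and its values overlapped those of M10 (AT2G41280), the higher of the AtM genes, at 6951, 6455 and 6723 TPM. AT2G23110 led the PvLEA18 family at 1306, 1236 and 1328 TPM. LEA14 (AT1G01470), a member of the folded LEA_2 family, had 1084, 993.4 and 1066 TPM.
LEA_3 was the only family without a stored member. Its highest, DI21 (AT4G15910), had only 19.0, 18.0 and 19.1 TPM in Col MS. Among the dehydrins RAB18, LEA (AT2G21490), XERO1, LTI30 and AT4G39130 were stored, from 31531 down to 135.1 TPM, while AT1G54410, ERD14, AT4G38410, COR47 and ERD10, several of which are known from cold- or drought-treated leaves, had means from 1.21 TPM down to no read in any library.

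**Figure D1:**
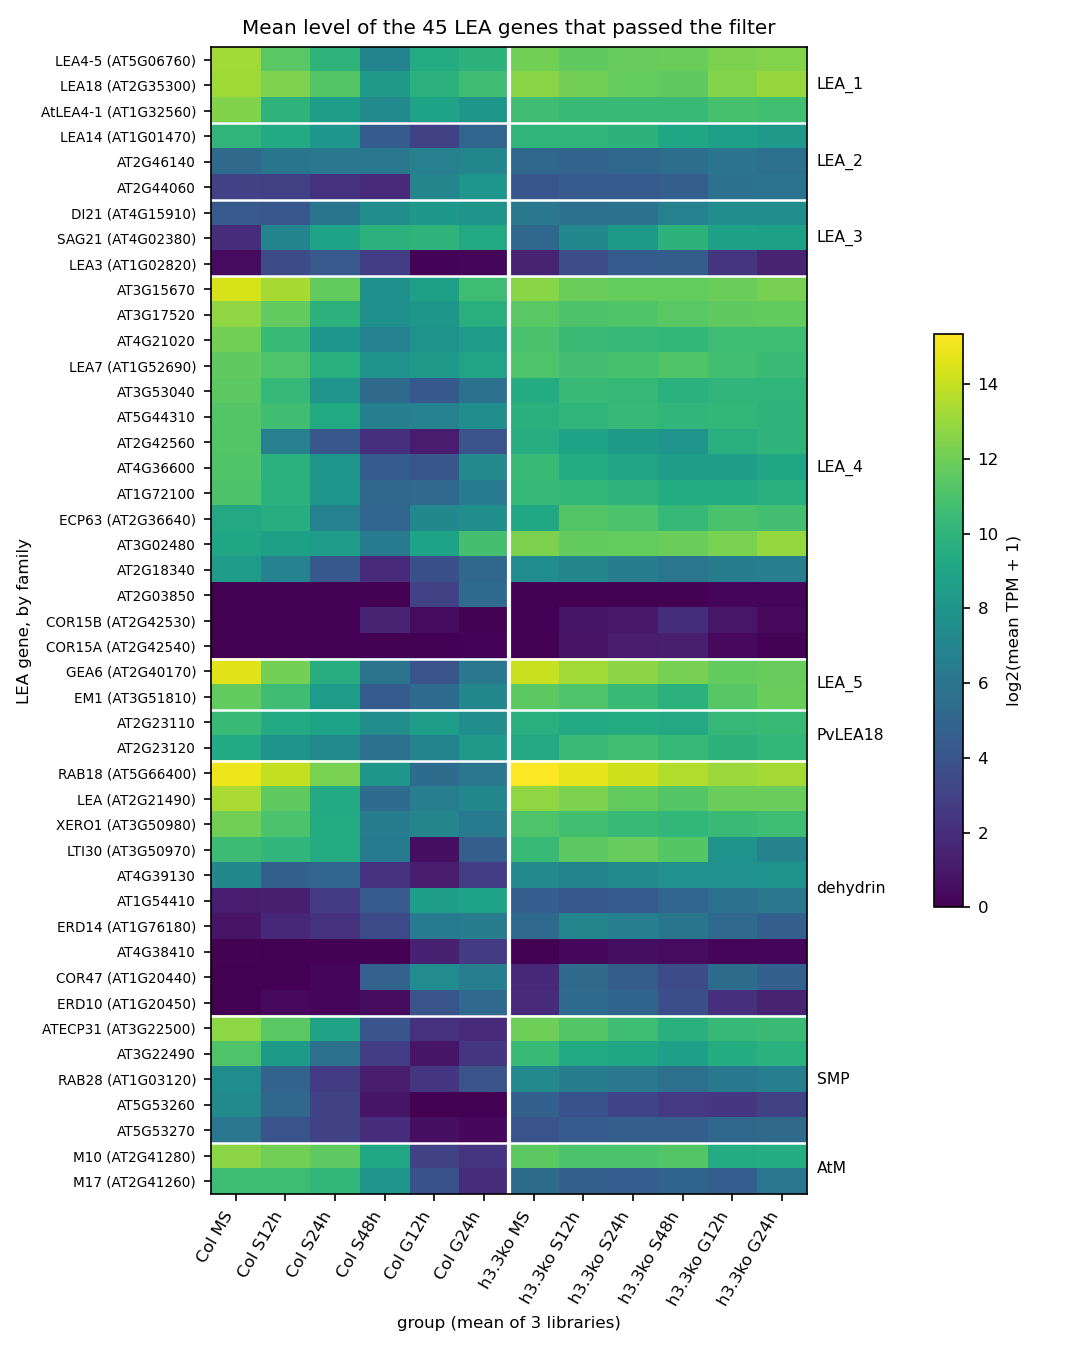
Mean level of the 45 LEA genes that passed the filter, as log2(mean TPM + 1) in colour, with genes in rows by family and the 12 groups (means of 3 libraries) in columns. In the Col columns the stored genes go from their highest colours in MS to low ones at S48h, whereas in the *h3.3ko* columns they change little in colour.

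From dry seed to the end of stratification most LEA transcripts fell in Col. At Col S48h against Col MS, 33 of the 45 members were called lower and 7 higher (limma, adjusted p below 0.05 and a change of over 1 on the log2 scale). Of all 19052 genes tested, 10.3% were called lower and 48.2% higher, and the median of all genes was 0.92, against -4.64 for the members. Each of the 31 members stored in Col MS was called lower, which is a description, because they were picked by their Col MS level. As a share of the MS mean, their median level was 41.9% after 12 h, 12.8% after 24 h and 1.99% after 48 h.
RAB18 went from the values above to 326.3, 277.6 and 223.9 TPM at Col S48h, a 114-fold fall in the mean. GEA6 fell further, to 70.5, 60.7 and 48.1 TPM, 442-fold below MS. AT3G15670 was left with 232.4, 231.8 and 170.0 TPM. None of these libraries came near the MS range. The steepest was that of AT2G42560 (LEA_4), from 2154, 2627 and 2518 TPM in MS to 111.9, 79.1 and 117.9 TPM already at S12h and 3.71, 4.24 and 2.25 TPM at S48h (log2 fold change -9.14, SE 0.27, limma adjusted p 9.39e-25). The slowest was that of an AtM gene. M17 (AT2G41260) had 1489, 1628 and 1570 TPM in MS, 1090, 1061 and 1344 TPM at S24h and still 299.6, 253.6 and 229.8 TPM at S48h, which is 16.7% of its MS mean and the largest share kept by any of the 31. Its neighbour M10 had 638.9, 565.3 and 471.4 TPM at S48h, 8.32% of MS.

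After transfer to germination conditions some stored members came back in Col and others were lost. At G24h against MS 31 members were called lower and 11 higher, where 9.42% and 59.3% of all tested genes were called and the median of all genes was 1.39. ATECP31 was at 1.97, 2.93 and 3.41 TPM and M10 at 4.46, 2.504 and 4.88 TPM, 2460-fold and 1700-fold below MS in their means. M17 had 5.49, 1.46 and 1.71 TPM. AT5G53260, an SMP gene with 164.0, 162.4 and 165.9 TPM in MS, had 1 read in 1 of the 3 libraries at G24h and none at G12h. In contrast AT3G15670 stood above its S48h level at G24h, at 1417, 1495 and 1605 TPM. AT3G02480 (LEA_4) dipped from 577.3, 506.3 and 558.3 TPM in MS to 79.9, 83.6 and 62.4 TPM at S48h and then reached 1656, 1850 and 1936 TPM at G24h. It was the only one of the 31 stored members above its MS level at that time, at 331% of its MS mean on TPM. With median-of-ratios scaling this share was only 110%. At G24h AT3G02480 was the most abundant LEA gene of Col, with 15.6% of the LEA total.

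**Figure D2:**
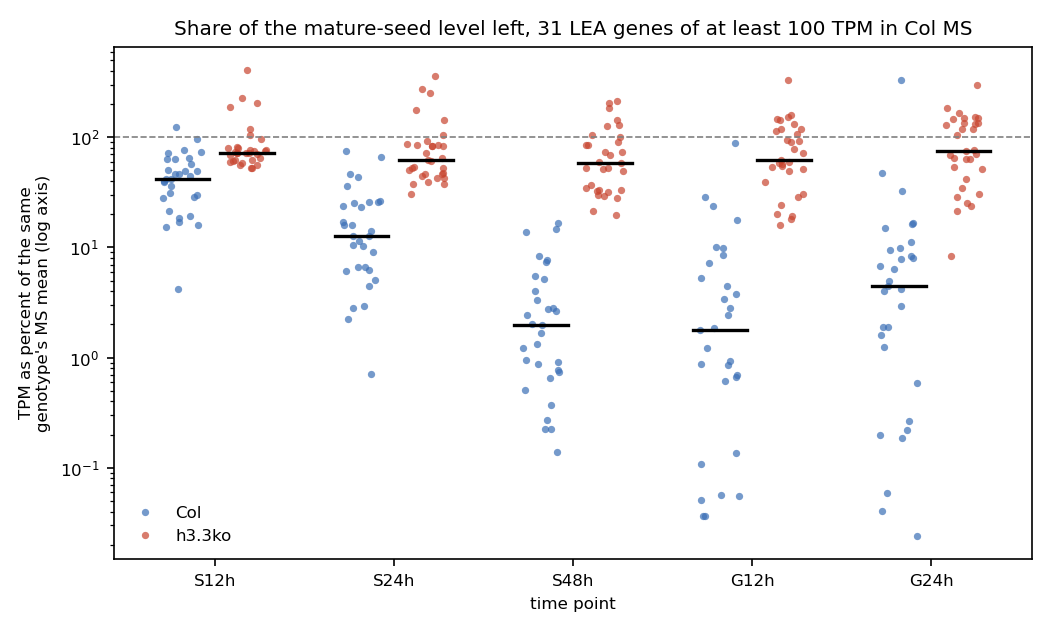
Level of each of the 31 LEA genes with at least 100 TPM in Col MS at the later time points, as a percentage of the mean of the same genotype's MS libraries on a log axis; points are genes and black lines medians over genes. The Col medians go from 41.9% at S12h to 1.99% at S48h, while the *h3.3ko* medians lie between 58.4% and 75.1%; AT5G53260 at Col G12h had no reads and has no point.

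A smaller set of LEA genes rose in germinating Col seeds. AT1G54410, a dehydrin, went from 1.06, 1.27 and 1.30 TPM in MS to 478.8, 478.0 and 463.1 TPM at G24h, a 392-fold increase (log2 fold change 7.75, SE 0.11, limma adjusted p 5.70e-33). ERD14 (AT1G76180), a dehydrin named for its early response to dehydration, went from 1.35, 0.413 and 0.514 TPM to 77.9, 83.6 and 94.8 TPM. ERD10 (AT1G20450), its relative, had no read in the MS libraries and 34.5, 39.2 and 35.1 TPM at G24h, at least 236-fold higher against a floor of 3 reads per library. COR47 (AT1G20440), beside ERD10 on chromosome 1, was likewise without reads in MS and was at least 880-fold higher at G24h, with a mean of 93.5 TPM. AT2G03850, a LEA_4 gene, had no read in any Col library up to S48h, then 6.05, 7.37 and 6.96 TPM at G12h and 35.7, 37.3 and 46.7 TPM at G24h. AT2G44060 of LEA_2 rose from a mean of 6.70 to 262 TPM. Some rises came already in the cold. At Col S48h against MS, 7 members were called higher (15.6%, against 48.2% of all genes). COR47 was among the genes up by then, with a mean of 27.9 TPM at S48h, at least 262-fold above MS. SAG21, a LEA_3 gene known from senescing leaves, went from 2.84 TPM in MS to 915.2 TPM at S48h, and was then the most abundant LEA transcript of Col. DI21, a drought-induced LEA_3 gene, went from 18.7 TPM to 194.2 TPM over the same interval. The freezing-protection genes COR15A and COR15B stayed at group means of 1.93 TPM or lower in Col.

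**Figure D3:**
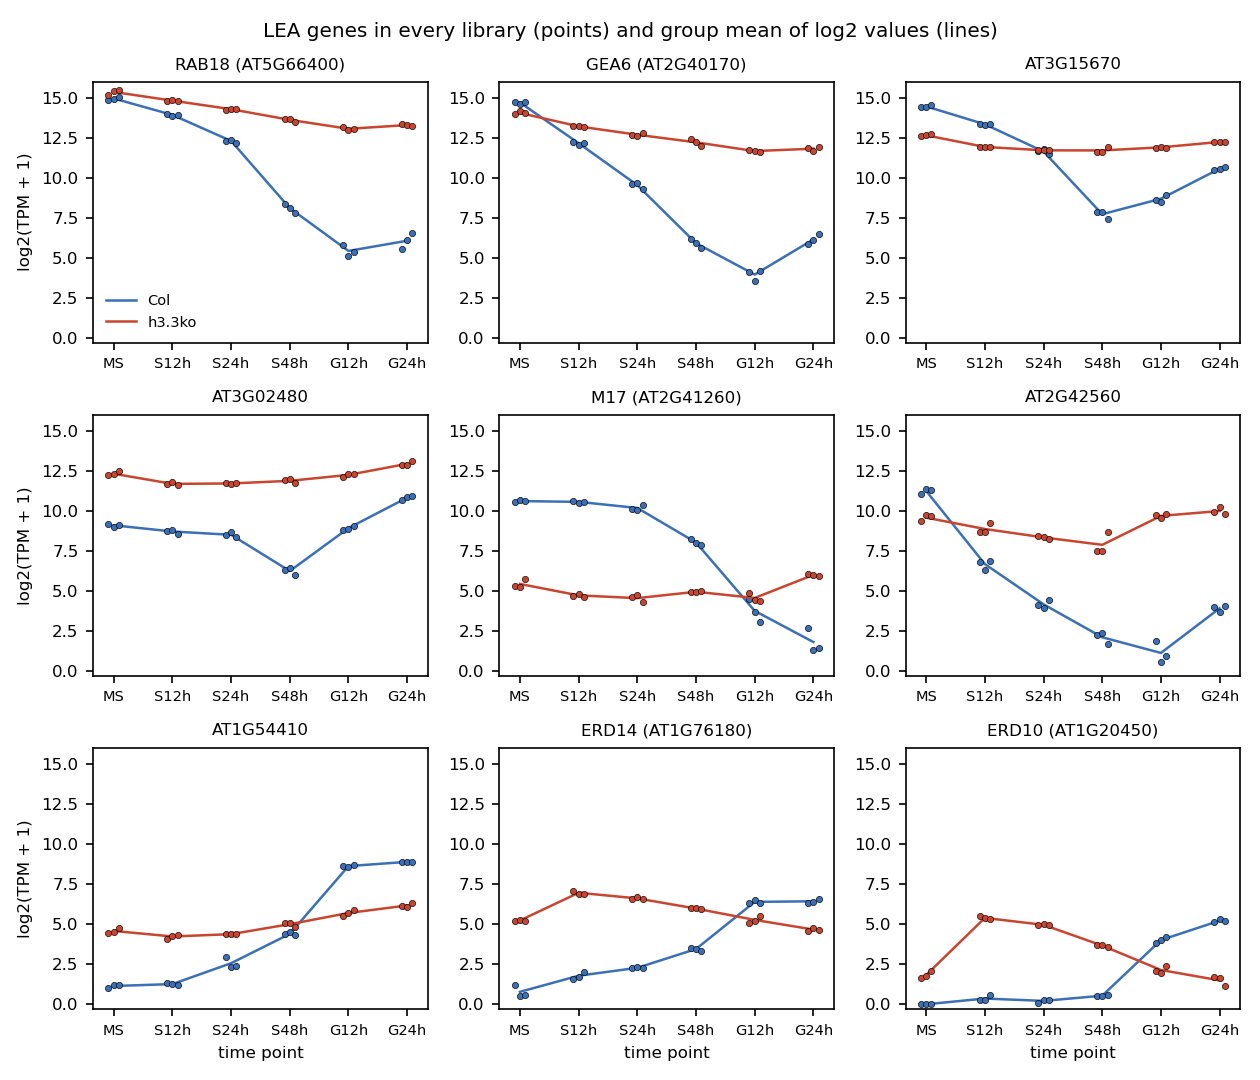
Levels of 9 LEA genes in all 36 libraries as log2(TPM + 1), one panel per gene, with points for libraries, lines for group means, blue for Col and red for *h3.3ko*. RAB18, GEA6 and AT2G42560 fall steeply in Col and stay high in *h3.3ko*, M17 starts low in *h3.3ko*, and AT1G54410, ERD14 and ERD10 cross between the genotypes.

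In mature seeds LEA genes were called in both directions between *h3.3ko* and Col. Of the 45 members 13 were called lower and 8 higher in *h3.3ko* (28.9% and 17.8%), against 10.6% lower and 8.55% higher among all genes. The member median was -0.46 and that of all genes 0.00. The lower ones were 7 LEA_4, 2 LEA_1, 2 SMP and both AtM genes, and the higher ones were 4 dehydrins, 2 LEA_3, 1 LEA_2 and 1 LEA_4 gene. The split depends on the scaling: with the storage protein genes left out of the totals it was 8 lower and 9 higher, against 6.18% lower and 16.2% higher among all genes, whose median moved to 0.18. With quantile normalization it was 6 lower and 9 higher, against 10.2% and 11% of all genes. The share of members called higher without the storage genes, and lower with quantile normalization, was thus near that of all genes. The 5 members M17, AT5G53260, AT5G53270, AT3G53040 and AT3G15670 were called lower under both, AT3G53040 under quantile normalization only just.
M17 differed most. Its 39.0, 36.2 and 53.5 TPM in *h3.3ko* MS were far under the Col values of 1489, 1628 and 1570 TPM, a 36.4-fold lower mean (log2 fold change -5.17, SE 0.25, limma adjusted p 1.12e-17). AT5G53260 had 23.8, 26.6 and 23.7 TPM in *h3.3ko* against 164.0, 162.4 and 165.9 TPM in Col (-2.69, SE 0.12, adjusted p 2.51e-18). AT3G53040, a LEA_4 gene with 7 ABRE core matches in its window, had 620.8, 731.6 and 718.5 TPM against 2638, 3115 and 2947 TPM (-2.07, SE 0.13, adjusted p 1.07e-14). In none of these genes did the libraries of the genotypes overlap. AT3G15670 followed with 6077, 6467 and 6619 TPM against 21415 to 23447 TPM. LEA4-5 (log2 fold change -1.19) and M10 (-1.22) were close to the threshold and were not called with the storage genes left out, where they stood at -0.74 and -0.77, nor under quantile normalization. AT2G42560 was at 649.7, 844.2 and 805.8 TPM in *h3.3ko* (-1.67, SE 0.27), but at -0.72 under quantile normalization, where it was not called.
RAB18 and GEA6, the most abundant members in Col MS, were not called on TPM, whereas AT3G15670, the next in level, was called lower (-1.81). RAB18 had 36879, 43190 and 45445 TPM in *h3.3ko* MS, above the Col range but with a log2 difference of only 0.41, and it made up 35.0% of the *h3.3ko* LEA total against 18.1% in Col. GEA6 was at 16026, 18035 and 16438 TPM (-0.65) and ATECP31 at 4082, 4058 and 3836 TPM (-0.77), both below Col without passing the fold threshold, which GEA6 did pass under quantile normalization (-1.18). LEA14 overlapped between the genotypes, with 996.9, 1043.5 and 1073 TPM against 1084, 993.4 and 1066 TPM.

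The 8 members called higher in *h3.3ko* MS were AT3G02480 and 7 with a Col MS mean under 100 TPM, and since that mean is also what *h3.3ko* was compared with, their low Col level is a description only. AT3G02480 had 4731, 4963 and 5644 TPM in *h3.3ko* and 577.3, 506.3 and 558.3 TPM in Col, 9.34-fold more (log2 fold change 3.22, SE 0.10, limma adjusted p 4.62e-22). ERD14 stood at 35.8, 38.2 and 35.9 TPM against 0.413 to 1.35 TPM (4.46, SE 0.12, adjusted p 8.92e-24), and AT1G54410 at 21.1, 21.6 and 26.3 TPM against 1.06 to 1.30 TPM (3.44, SE 0.11, adjusted p 3.57e-22). The same pair of dehydrins belongs to those that rise in Col on germination. ERD10 had 2.102, 2.43 and 3.21 TPM where the Col libraries held no read, at least 16.8-fold higher, and COR47 was at least 21.6-fold higher. DI21 had 74.7, 69.8 and 68.5 TPM against 18.0 to 19.1 TPM (1.87), and SAG21 34.55 TPM on average against 2.84 TPM (3.21). AT2G44060, the only LEA_2 gene of the 8, had 16.4 TPM against 6.70 TPM.

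During stratification the genotypes moved apart, since the stored transcripts fell less in *h3.3ko*. At S12h, S24h and S48h the members called higher in *h3.3ko* numbered 14, 30 and 36, and those called lower 5, 1 and 2. The 5 at S12h became 2 with quantile normalization or with the storage genes left out, and 3 with median-of-ratios scaling or voom. Among all genes 10.9%, 16.1% and 17.8% were called higher and 14.6%, 16.1% and 17.8% lower at these times. The member medians were 0.39, 1.82 and 3.45, while the medians of all genes were -0.09, 0.00 and 0.00. At S48h all the tested LEA_1, LEA_5, PvLEA18 and SMP genes were called higher (3, 2, 2 and 5), with 13 of 15 LEA_4 genes and 7 of 10 dehydrins.
GEA6 was the largest difference of S48h, with 5438, 4728 and 4070 TPM in *h3.3ko* against 70.5, 60.7 and 48.1 TPM in Col (log2 fold change 6.29, SE 0.14, limma adjusted p 1.52e-26). RAB18 had 13015, 12898 and 11540 TPM against 223.9 to 326.3 TPM (5.51, SE 0.16, adjusted p 1.52e-23). AT3G15670, lower in *h3.3ko* at MS and S12h, overlapped between genotypes at S24h (3334 ± 18.5 TPM against 3184 ± 362.9 TPM, SD, n = 3) and was 15.8-fold higher at S48h. Between these times the Col level changed most: the *h3.3ko* mean was 3336 TPM at S48h, and Col had fallen to 211.4 TPM.
M17 was the member called lower at each of the 4 times from MS to S48h. At S48h its *h3.3ko* libraries had 29.1, 30.2 and 30.5 TPM against 299.6, 253.6 and 229.8 TPM. The other one lower at S48h was COR47, at a mean of 10.8 TPM against 27.9 TPM, after having been called higher at S12h, with 39.2 TPM against 0.0284 TPM. ERD10 behaved like COR47 at first, with 44.7, 40.2 and 38.3 TPM in *h3.3ko* S12h against 0.182, 0.185 and 0.500 TPM in Col, and was still higher at S48h (12.1, 12.1 and 10.9 TPM against 0.418, 0.430 and 0.501 TPM). ERD14 reached 133.8, 118.0 and 119.3 TPM in *h3.3ko* S12h and then came down. ERD10 and ERD14 thus had their highest *h3.3ko* means at S12h, whereas in Col they were highest at G24h. ECP63 (LEA_4) and AT2G23120 (PvLEA18) were above their MS means as well in imbibed *h3.3ko* seeds, at 2376 TPM in S12h after 585.6 TPM and at 1392 TPM after 612.4 TPM, and both passed the test against MS at S48h (log2 fold changes 1.08 and 1.01). That call was lost under every other scaling and with voom, and with median-of-ratios scaling the direction turned (-0.49 and -0.56). LTI30, a cold-induced dehydrin, averaged 1383 TPM in *h3.3ko* MS, 2821 TPM in S12h and 3455 TPM in S24h. With median-of-ratios scaling it did not rise in this way, at 102% of its MS mean in S12h and 94.2% in S24h.

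Within *h3.3ko* the change from MS depended on how libraries were scaled. On TPM, 12 members were called lower and 8 higher at S48h, and 8 lower and 7 higher at G24h. The shares of all genes called were 3.21% lower and 51% higher at S48h and 3.52% lower and 50.4% higher at G24h, with medians of all genes of 1.03 and 1.01. With median-of-ratios scaling, which brings that median close to 0, the counts were 32 lower and 4 higher at S48h and 24 lower and 2 higher at G24h, against 19.1% lower and 17.5% higher, and 17.1% lower and 17.5% higher, of all genes. The median share of the MS level left in the 31 stored members was 58.4% at S48h and 75.1% at G24h on TPM, and 19.5% and 28.0% with median-of-ratios scaling. The corresponding Col shares were 1.99% and 4.45% on TPM and 0.732% and 1.47% with median-of-ratios scaling, so the order of the genotypes was the same on either scale.
RAB18 and GEA6 fell in *h3.3ko* by the TPM test as well, to 29.8% and 28.2% of MS at S48h, but were not called under quantile normalization (-0.68 and -0.53). LTI30 fell late, from 2525 TPM at S48h to 222.7 TPM at G12h and 115.6 TPM at G24h, 8.35% of MS. On TPM, ECP63 stayed above its MS mean at each later time, whereas with median-of-ratios scaling it was at 71.8% of MS at S48h.

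In germination conditions most LEA genes were called higher in *h3.3ko*. At G12h 32 members were called higher and 8 lower (71.1% and 17.8%), against 10.2% and 17.6% of all genes. At G24h 33 were called higher and 8 lower (73.3% and 17.8%), against 9.63% and 29.4%. The share called lower was thus near that of all genes at G12h and under it at G24h. The member medians were 3.04 and 2.37, and those of all genes -0.16 and -0.39. All 31 stored members were among those called higher at G24h. The 8 called lower at G24h were 5 of the 10 dehydrins, 2 of the 3 LEA_2 genes and AT2G03850.
ATECP31 showed the largest difference, with 1455, 1325 and 1396 TPM in *h3.3ko* against 1.97, 2.93 and 3.41 TPM in Col, 503-fold in the means (log2 fold change 8.55, SE 0.25, limma adjusted p 2.79e-24). Its SMP neighbour AT3G22490 had 898.4, 854.9 and 890.5 TPM against 4.13, 3.13 and 5.89 TPM (7.39, SE 0.12, adjusted p 4.75e-30). RAB18 had 10375, 9881 and 9614 TPM against 44.7, 68.0 and 93.3 TPM (7.22, SE 0.16, adjusted p 7.31e-27). These libraries did not come near each other. GEA6 was at 3692, 3294 and 3782 TPM against 58.0, 66.7 and 87.4 TPM, and M10 at 692.1, 668.5 and 801.1 TPM against 4.46, 2.504 and 4.88 TPM. LEA_1 and PvLEA18 genes differed less than these. LEA4-5 had 5794, 5434 and 6154 TPM against 943.1, 900.2 and 1059 TPM, and AT2G23110 had 1325, 1263 and 1541 TPM against 187.9, 193.0 and 203.0 TPM. AT3G02480 reached 7371, 7418 and 8811 TPM in *h3.3ko*, its highest TPM in the series, against 1656 to 1936 TPM in Col, although with median-of-ratios scaling the *h3.3ko* level was 57.2% of its MS mean. LEA14 was 10.3-fold higher, with 306.6, 298.2 and 345.2 TPM against 25.5, 31.5 and 35.3 TPM.
AT2G03850 was nearly without reads in *h3.3ko* G24h (3, 1 and 1 reads, mean 0.143 TPM), while Col had 35.7, 37.3 and 46.7 TPM (-5.16, SE 0.08, adjusted p 8.08e-31). ERD10 had come down to 2.21, 2.08 and 1.25 TPM in *h3.3ko* as Col rose to 34.5, 39.2 and 35.1 TPM (-3.73, SE 0.12, adjusted p 1.51e-22). AT1G54410 had 68.6, 66.4 and 78.3 TPM in *h3.3ko*, above its MS level by the TPM test (1.59) but not with median-of-ratios scaling (0.21), and stayed under the 463.1 to 478.8 TPM of Col (-2.72, SE 0.11, adjusted p 2.38e-20). ERD14 was at 22.6, 26.7 and 23.9 TPM against 77.9 to 94.8 TPM. At G12h its call as lower (-1.12) was lost under the other scalings and with voom. DI21 did not pass the fold threshold at G24h, with 185.8, 173.5 and 222.2 TPM against 239.7, 250.3 and 261.4 TPM.

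Of the 45 members 18 were called in opposite directions at MS and G24h. The share of all genes called in this way was not worked out, so these counts are a description. As 33 of the 45 were called higher at G24h, a turn of most members lower at MS follows largely from that. Lower in *h3.3ko* MS and higher at G24h were 13, which is every member called lower at MS, and higher at MS and lower at G24h were the 5 genes COR47, ERD10, AT1G54410, ERD14 and AT2G44060. The largest turn was that of M17, from -5.17 to 4.19, although its *h3.3ko* level was only 66.2, 62.1 and 61.2 TPM at G24h, and Col had gone from 1489 to 1628 TPM in MS to 1.46 to 5.49 TPM. M10 turned from -1.22 to 7.22 and AT2G42560 from -1.67 to 6.07, the latter with 988.8, 1213 and 876.6 TPM in *h3.3ko* G24h against 15.04, 11.73 and 15.85 TPM. The 13 became 8 with the storage genes left out and 6 with quantile normalization, while the 5 in the other direction were 5 under both. The MS part of the M10 turn was lost under both, and that of the AT2G42560 turn under quantile normalization. AT3G02480 alone was called higher at all 6 times, and every one of the 45 was called at least once. For these 2 patterns too, the share of all genes was not worked out.

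**Figure D4:**
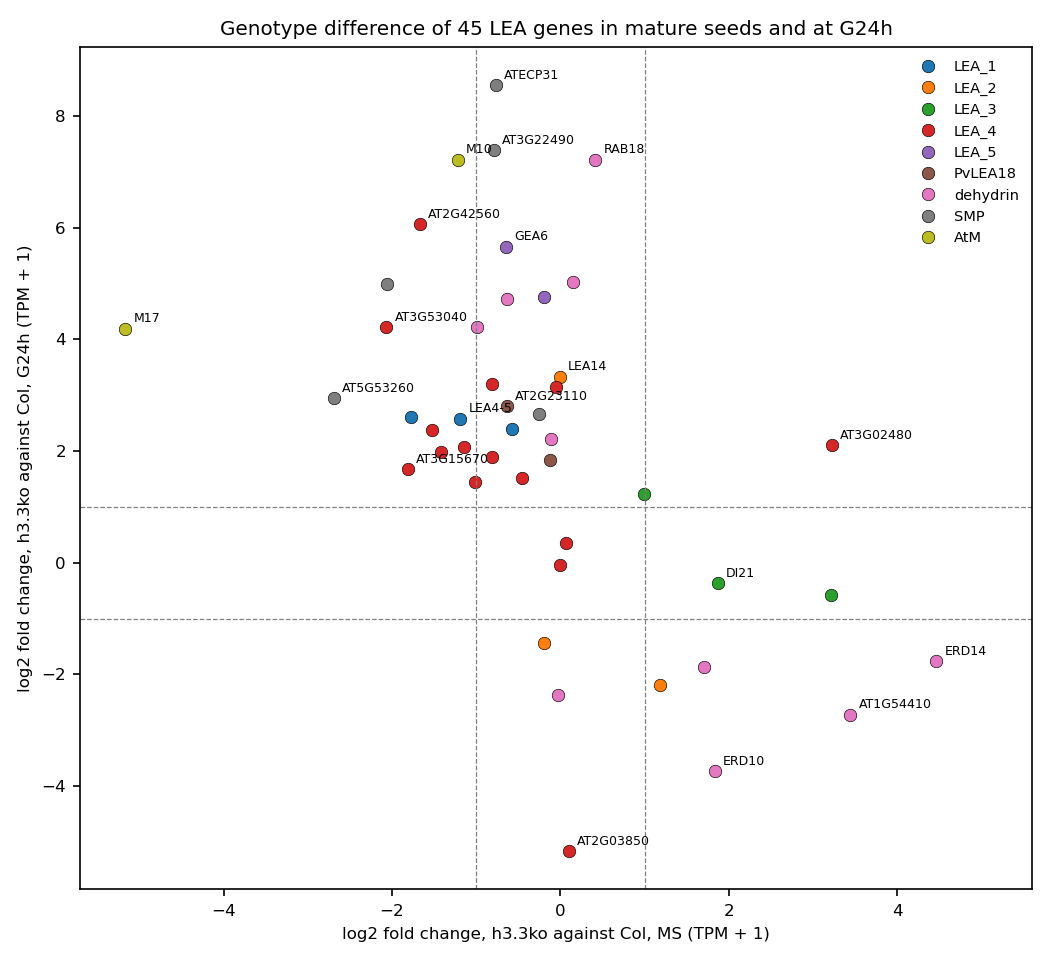
Log2 fold change of *h3.3ko* against Col in MS (x axis) and at G24h (y axis) for the 45 LEA genes, coloured by family, with dashed lines at the fold threshold of 1 in size; genes named in the text by the fixed rule are labelled. The stored genes lie above 0 at G24h, M17 is far left, and ERD14, AT1G54410 and ERD10 lie at the lower right.

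The difference between the genotypes in their change from MS was itself tested as an interaction. Between MS and S48h, 35 members had a more positive and 5 a more negative change in *h3.3ko* than in Col, where 19.5% and 16.9% of all genes were called. From MS to G24h the counts were 31 and 11, against 13.4% and 31.2%. The medians were 4.68 and 3.21 for the members and 0.03 and -0.30 for all genes. These counts moved by at most 2 under the other scalings. By family, all of the LEA_1, LEA_5, PvLEA18, SMP and AtM genes tested had a more positive change in both intervals. The dehydrins divided into 5 with a more positive and 5 with a more negative change from MS to G24h, the stored and the not stored ones. That division is a description only, because the Col MS level that defines the stored members is part of the change tested. LEA_3 had none with a more positive change and 2 of 3 with a more negative change in each interval, DI21 (-2.77 to S48h) and SAG21 (-3.15).

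As a share of all TPM the LEA genes went in Col from 17.4 ± 0.649% in MS through 7.08 ± 0.304%, 2.53 ± 0.1998% and 0.458 ± 0.0489% during stratification to 0.722 ± 0.0529% and 1.17 ± 0.0563% during germination (SD, n = 3 each). In *h3.3ko* they went from 11.96 ± 0.778% in MS to 8.74 ± 0.164%, 7.10 ± 0.119%, 5.82 ± 0.0352%, 6.003 ± 0.0306% and 7.055 ± 0.126% at the same times. The summed level thus fell 38.1-fold in Col and 2.05-fold in *h3.3ko* from MS to S48h. With median-of-ratios scaling these falls were 103-fold and 6.15-fold. In MS the Col sum was 1.46-fold that of *h3.3ko*, and 1.07-fold with the storage genes left out of the totals. At S48h the *h3.3ko* sum was 12.7-fold that of Col on TPM and on the median-of-ratios scale.

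**Figure D5:**
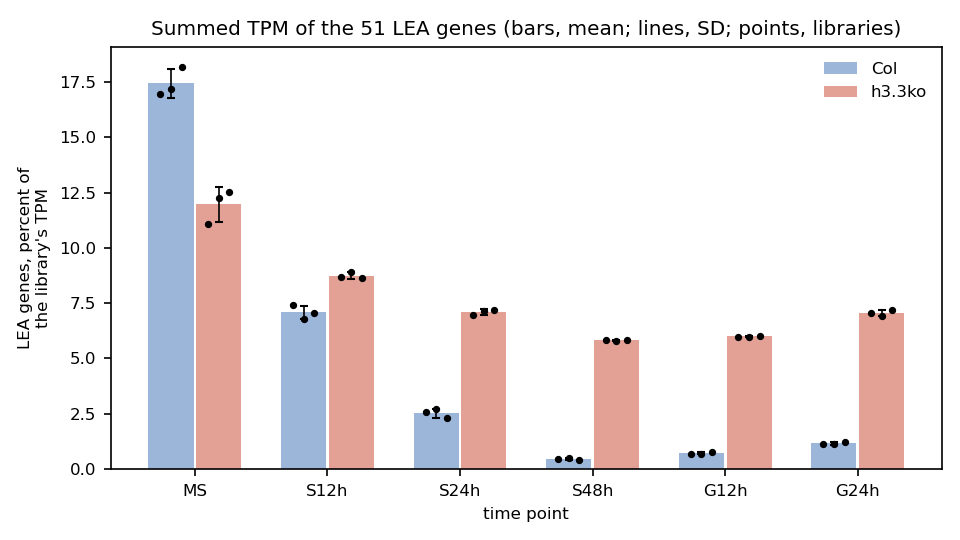
Summed TPM of the 51 LEA genes as a percentage of each library's TPM by time point, blue for Col and red for *h3.3ko*; bars are means of 3 libraries, black lines the SD and points the libraries. The Col bars drop from 17.4% in MS to 0.458% at S48h, and the *h3.3ko* bars stay between 5.82% and 11.96%.

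Several LEA genes lie near each other, and neighbours did not always share a pattern. There were 8 pairs of listed genes with under 10000 bases between the annotated ends, and other genes may lie between the members of a pair. ATECP31 and AT3G22490 (781 bases between them on chromosome 3) were alike in sign at all times from S24h on. M17 and M10, 1998 bases apart on chromosome 2, had a 36.4-fold and a 2.34-fold lower mean in *h3.3ko* MS. LTI30 and XERO1, dehydrins 313 bases apart, parted in *h3.3ko*: at G24h LTI30 was at 115.6 TPM and XERO1 at 1564 TPM, after 1383 and 2225 TPM in MS. AT2G42560, at 2433 TPM in Col MS, lies 2307 bases from COR15A, which had no read there. AT5G53260 and AT5G53270 (596 bases apart) were both lower in *h3.3ko* MS, but by G24h AT5G53260 had fallen to 7.09 TPM in *h3.3ko* and AT5G53270 was at 39.3 TPM after 15.02 TPM, a difference that was not called with median-of-ratios scaling (-0.01). Reads of near-identical copies can be split by the counting, so single values of COR15A and COR15B are uncertain.

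The transcription factors and related regulators of the ABA response in seeds were compared from a list of 20, of which 18 passed the filter. In *h3.3ko* against Col 1 was called higher at MS, then 6, 7 and 9 during stratification and 6 and 5 during germination, and 2 were called lower at MS, then 2, 1 and 1 and again 2 and 2. At MS these were 5.6% higher and 11.1% lower, near the 8.55% and 10.6% of all genes. At S12h they were 33.3% and 11.1%, against 10.9% and 14.6%, and at S24h 38.9% and 5.6%, against 16.1% and 16.1%. The 9 of 18 higher at S48h, and the 5.6% lower, stood against 17.8% and 17.8% of all genes. At G12h the shares were 33.3% and 11.1%, against 10.2% and 17.6%, and at G24h 27.8% and 11.1%, against 9.63% and 29.4%. The share called lower was thus near or under that of all genes at every time. ABI5, the bZIP factor best known for activating Em genes, had 116.1, 127.1 and 107.0 TPM in *h3.3ko* MS against 346.3, 387.5 and 337.4 TPM in Col (log2 fold change -1.61, SE 0.09, limma adjusted p 1.16e-16), and 131.6, 138.9 and 127.3 TPM against 48.2, 44.5 and 46.0 TPM at G24h (2.87-fold, adjusted p 1.97e-16). The 13 LEA genes that were lower at MS and higher at G24h were picked by those signs, so sharing them with ABI5 is a description only. The Em genes GEA6 and EM1 were not called at MS on TPM (-0.65 and -0.20). A link to ABI5 was not tested. EEL, a bZIP factor known to compete with ABI5 at Em promoters, was higher at both times, with 173.0, 183.3 and 155.3 TPM against 63.2, 63.7 and 59.2 TPM at MS and 117.7 ± 2.59 TPM against 7.74 ± 0.744 TPM at G24h (SD, n = 3). ABF4, a bZIP factor of the vegetative ABA response, overlapped between genotypes at MS and was at 40.7 TPM against 7.34 TPM at G24h (2.32). ABF3 was at 51.7 TPM in Col G24h and 1.25 TPM in *h3.3ko*. ABI4 was lower at G24h, with 56.2 TPM against 174.3 TPM, and BZIP53 at MS, with 14.9 TPM against 34.2 TPM. Of the 3 CBF cold-response regulators, known to induce COR genes through the DRE core, 1 passed the filter, CBF2, and it was called lower at G12h only, where the Col libraries had 0.984, 6.01 and 0.750 TPM and those of *h3.3ko* 0.216 to 0.439 TPM.

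Several markers of the seed's tissues also differed between the genotypes, and their part in the LEA values was not tested. The 4 oil body and embryo markers were not called at MS (0 of 4) and summed to 34227 to 35632 TPM in Col and 30060 to 32045 TPM in *h3.3ko*, and at G24h all 4 were called higher, with sums of 272.9 to 307.0 TPM against 10713 to 12229 TPM. Of the 4 endosperm markers 2 were called higher and 1 lower in *h3.3ko* MS, with sums of 16394 to 18304 TPM in Col and 9848 to 10323 TPM in *h3.3ko*, and 1 higher and 2 lower at G24h (1747 to 2432 TPM and 3315 to 3568 TPM). The list does not move as one: EPR1, an endosperm extensin-like gene, was at 9463 TPM in Col MS and 1666 TPM in *h3.3ko*, whereas PER1, which is made in embryo and aleurone, was 60.7-fold higher in *h3.3ko* G24h. Of the 4 photosynthesis genes 3 were called higher in *h3.3ko* MS, with sums of 12.9 to 14.5 TPM in Col and 234.8 to 264.1 TPM in *h3.3ko*. At G24h they summed to 4026 to 4415 TPM in Col and 547.6 to 686.8 TPM in *h3.3ko*, and all 4 were called lower in *h3.3ko*. The oil body genes of dry seed were present in every MS library, as the seed label says.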

How the data were processed

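Gene levels were taken as TPM, as deposited by the authors for 27655 genes in 36 libraries. Per the study's methods and the processing notes, the authors trimmed reads with fastp 0.20.1, mapped them to the TAIR10 genome with HISAT2 and counted them with HTSeq 0.11.2. The deposited TPM are relative to the whole span of each gene, introns included: multiplied by that span they gave whole reads (within 0.02 reads) in all libraries for 27440 of 27445 genes with a RefSeq span (99.98%), so the level of an intron-rich gene is understated. Depth is the sum of these reads.

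The 19052 genes with at least 1 TPM in at least 3 libraries were tested as log2(TPM + 1) with limma 3.58.1 (trend) in R 4.3.3, with 1 mean per group for all 12 groups and Benjamini-Hochberg adjustment over all genes. Fold changes are on this scale, which understates low genes, and folds against groups without reads are lower bounds from a floor of 3 reads per library. A gene was called at an adjusted p below 0.05 and a log2 change above 1 in size. The procedure was tested on simulated data. Tables and figures were made with Python 3.11.15.

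The members, gene lists and alternatives were chosen with earlier results of these data known. Per-library values were given for the highest member of each family in Col MS, for the 3 largest calls in each direction at MS and G24h (at least 5 TPM in the higher group, libraries not overlapping) and for up to 3 members called in opposite directions at those times. Regulators were named where called at MS or G24h, at most 6, and other members by means. Alternatives covered the pseudocount, the filter, the scaling, voom on recovered reads, the groups fitted, single libraries and a replicate block. Only at S12h did all same-numbered Col and *h3.3ko* libraries deviate together (r of 0.25, 0.28 and 0.19). The main fit paired libraries at no time, and the replicate block was run as an alternative for every comparison. Protein sequences were not used here.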

Additional observations from a re-analysis of the deposited data

Results flagged for a closer look

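The change from MS differed between *h3.3ko* and Col by the interaction term (limma, adjusted p below 0.05 and over 1 on the log2 scale) in most members. From MS to S48h the change was more positive in *h3.3ko* for 35 members and more negative for 5 (77.8% and 11.1%, against 19.5% and 16.9% of all genes). From MS to G24h the counts were 31 and 11 (68.9% and 24.4%, against 13.4% and 31.2%). The share with a more negative change was thus under that of all genes in both intervals. Values below are the log2 change in *h3.3ko* minus that in Col, and their causes were not tested.

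Among the abundant seed genes, the difference to S48h was 6.94 for GEA6, 5.10 for RAB18, 5.79 for AT3G15670, 6.21 for LEA4-5, 6.53 for AT3G53040 and 7.44 for AT2G42560. To G24h the same genes stood at 6.31, 6.82, 3.48, 3.77, 6.29 and 7.74. The SMP genes ATECP31, AT3G22490 and AT5G53260 had 6.47, 6.65 and 4.37 to S48h and 9.32, 8.18 and 5.64 to G24h. For the AtM genes M10 and M17 the values were 3.35 and 2.10 to S48h, and 8.44 and 9.37 to G24h. LEA14 had 4.65 and 3.34 and AT2G23110 had 2.30 and 3.45 over these intervals.

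AT3G02480 was at 2.41 to S48h and -1.11 to G24h, the latter no longer called with voom (-0.91), with quantile normalization (-0.94) or after median-of-ratios scaling (-0.93). ERD10, without reads in Col MS, was at 1.30 to S48h and -5.55 to G24h, but the first value depends on the pseudocount and the scaling, and was -0.30 with pseudocount 0.1, 0.11 with median-of-ratios scaling and -1.91 with voom. The dehydrins ERD14 and AT1G54410 were at -1.93 and -2.83 to S48h and at -6.22 and -6.16 to G24h. DI21 had -2.77 and -2.25. AT2G03850 was at -5.26 to G24h.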

How the results depend on the processing

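The counts of called members for S24h, S48h, G12h, G24h, the Col time course and the interaction stayed within 1.5 times of their values under all alternatives run. In the other comparisons the scaling moved counts, and the cause was not tested. Members lower in *h3.3ko* MS numbered 6 with quantile normalization and 8 with the storage genes left out. Members lower at S12h numbered 3 with median-of-ratios scaling, 2 with quantile normalization, 2 with the storage genes left out and 3 with voom. Within *h3.3ko*, median-of-ratios scaling gave 4 higher and 32 lower at S48h and 2 higher and 24 lower at G24h, and quantile normalization 5 higher and 3 higher. The summed level on the median-of-ratios scale was 377149.6 in Col MS, 21395.2 in S24h, 3644.0 in S48h, 5086.5 in G12h and 8349.2 in G24h, and in *h3.3ko* 284473.5, 104255.7, 63683.9, 46248.1, 46610.9 and 62505.9 from MS to G24h. Without the storage genes in the totals it came to 193997.6 in Col MS and 75395.1 in Col S12h, and in *h3.3ko* 181620.5, 118452.8, 87938.2, 67911.1, 67791.2 and 85206.1 TPM.

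Leaving out 1 library gave 8 to 9 higher and 12 to 14 lower members at MS, 14 to 15 and 5 at S12h, 29 to 32 and 1 at S24h, 36 and 2 at S48h, 32 to 33 and 7 to 8 at G12h, and 33 and 8 at G24h. Without Col replicate 1, M17 was called at G12h (1.18). The replicate block changed the call of 0 members in any of the 12 comparisons (8 higher and 13 lower at MS as without it). For the named genes, 990 fold changes between the genotypes kept their side of the threshold under other settings, 17 lost the call, 13 gained it and 0 reversed. Their differences in change from MS were rerun under settings chosen after seeing the data: 333 kept their side, 4 lost the call and 3 reversed. The reversals were of ERD10 to S48h (1.30), at -0.30 with pseudocount 0.1, -0.11 with quantile normalization and -1.91 with voom. RAB18 at S24h (1.98) stood at 0.33 under quantile normalization, and M10 at S12h (-1.05) was not called under any other scaling. Low read numbers limit the genes under about 0.370 TPM per 1 kb, the highest floor of 3 reads in any library.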
